A study of Mus musculus with 3 samples.

Results

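The 52 genes of the tumour necrosis factor (TNF) superfamily that this account covers are its ligands, its receptors and the TRAF adaptor proteins that carry the receptors' signals. They were chosen by gene symbol, out of 21881 symbols in the files, with earlier results of these data known. The rule took the family names Tnfsf, Tnfrsf and Traf and 14 other symbols such as Tnf, Fas, Ltbr and Cd40. The 52 genes comprised 18 ligands, 7 receptors with a death domain, 16 receptors that recruit TRAFs directly, 4 decoy or soluble receptors and 7 TRAFs. Total RNA was sequenced from 3 tumours, the only group of the series. The tumours grew from cells of NDL(UCD), a cultured mouse mammary tumour line that can be transplanted, and NDL models are known for an activated Erbb2 transgene driven by a mammary tumour virus promoter. All 3 tumours came from female hosts, given as FVB/NJ in the protocol and FVB/N in the labels, that received the cells in intact mammary fat pads at 6 to 8 weeks of age. Tumours were frozen at a width of 5 to 10 mm, each from a different mouse. No treatment and no untransformed gland were included, so the comparisons below are between genes and between tumours. The material is 1 line in an immunocompetent host strain, and each library mixes tumour cells with host stroma and immune cells.

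TNF superfamily ligands are trimeric proteins, mostly anchored in the membrane and in part released by proteases, and they act on cells that carry the matching receptor. Receptors with a death domain can recruit adaptors that activate caspases, whereas the TRAF-binding receptors lead mainly to NF-kappaB and to kinases such as JNK. In the mammary gland the family is best known for RANK ligand (Tnfsf11) and its receptor RANK (Tnfrsf11a), through which progesterone signals between neighbouring epithelial cells.

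Levels are fragment counts scaled to transcript length in kilobases and to mapped fragments in units of 1000000 (FPKM), and can so be compared between genes. Summed over all symbols, the values came to 318509, 375968 and 364195 FPKM in tumours 1, 2 and 3, and the deposited intervals imply 11.7, 12.4 and 13.4 times 1000000 fragments. Where a gene was listed at 0, up to 3 fragments could have been missed, which at the median locus is 0.0411, 0.0427 and 0.0384 FPKM, a limit for counting error only. All 6 luminal epithelial markers, such as Krt8 and Epcam, were above 1 FPKM, with summed levels of 789, 1163 and 1096 FPKM. All 8 macrophage markers were also above 1 FPKM, summing to 246, 443 and 909 FPKM. The 8 T cell markers summed to 2.20, 5.12 and 11.6 FPKM, and the 6 B cell markers to 0.133, 0.631 and 0.784 FPKM, with Pax5 listed at 0 in every tumour. In bulk RNA, fewer cells of a type and less RNA per cell cannot be told apart.

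Receptors and TRAFs made up most of the members with appreciable transcript levels, and ligands were mostly scarce. The median member had a mean of 0.735 FPKM, against 2.44 FPKM for the median of all tested symbols. By role, the medians of the mean levels were 0.202 FPKM for ligands, 1.70 FPKM for death domain receptors, 1.57 FPKM for TRAF-binding receptors, 1.66 FPKM for decoy and soluble receptors and 4.26 FPKM for TRAFs. A member was called above or below the level of 1 FPKM, a convention and not a biological boundary, by limma over all 18028 tested symbols at an adjusted p under 0.05. Of the 52 members, 19 were called above, 21 below and 10 neither, and 2 ligands were listed at 0 in all tumours and not tested. The 19 members are 38% of the 50 tested, against 54.2% of all symbols called above, and 32.5% of all symbols were called below. Above 1 FPKM stood 2 ligands, 4 death domain receptors, 6 TRAF-binding receptors, 2 decoy or soluble receptors and 5 TRAFs. Scaling each tumour to an FPKM total of 1000000 moved the median of all symbols up by 1.46 on the log2 scale. It gave 27 members above, against 64.5% of all symbols, and 11 below, against 23.3%. No longer called below were Fasl, Lta, Relt, Tnfrsf13b, Tnfrsf25, Tnfrsf26, Tnfrsf4, Tnfsf8, Tnfsf9 and Traf5. Of these, Tnfrsf4 and Traf5 were no longer below 1 FPKM on average. Without tumour 2 the count above was 12, against 42.9% of all symbols, as Fas, Tnfrsf10b, Tnfrsf11b, Tnfrsf19, Tnfrsf23, Tnfsf10 and Traf6 were no longer called.

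**Figure D1:**
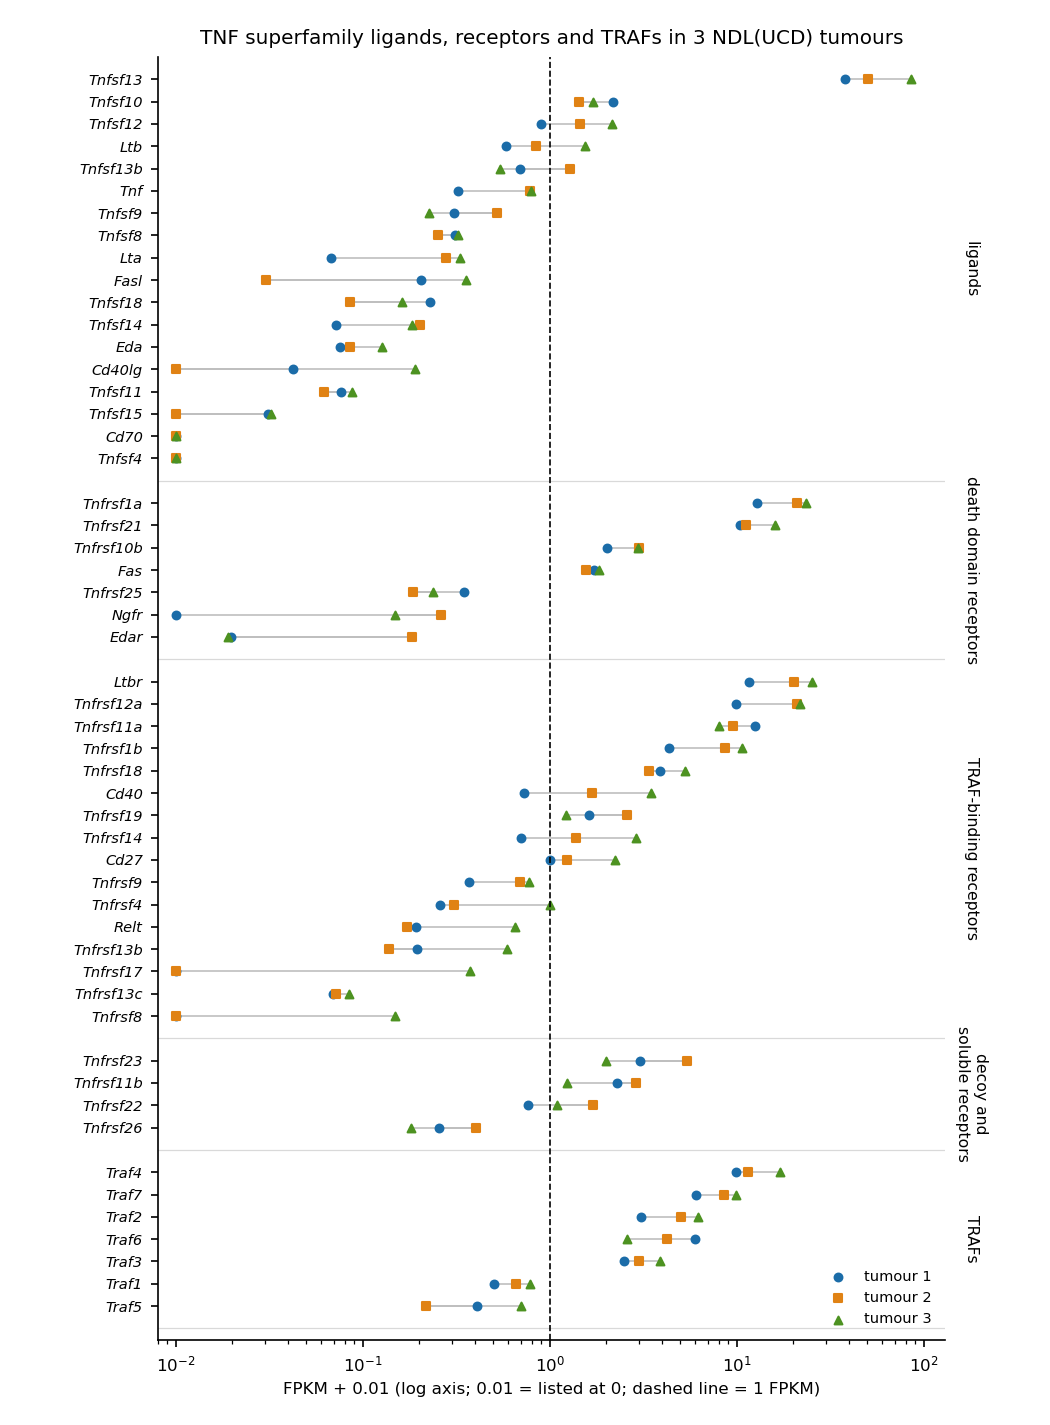
Level of each of the 52 members in tumours 1, 2 and 3 as FPKM + 0.01 on a log axis, grouped by role, with a grey line over each member's range and a dashed line at 1 FPKM. Tnfsf13, at 38.0 to 85.7 FPKM, stands apart from the other ligands, while no receptor exceeds 25.3 FPKM, the level of Ltbr in tumour 3.

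The ligand APRIL (Tnfsf13), which is known to bind the B lineage receptors TACI and BCMA and also proteoglycans, was the most abundant member. Its levels were 38.0, 50.6 and 85.7 FPKM in tumours 1, 2 and 3, a mean of 58.1 ± 24.7 FPKM (SD, n = 3), which ranked 677 among the symbols from the top. It lay 5.64 ± 0.28 (SE) above 1 FPKM on the log2((FPKM + 0.1)/1.1) scale, with an adjusted p of 1.77e-07 by limma. It made up 86.5%, 87.6% and 90.9% of the summed FPKM of all 18 ligands, and the other 17 ligands together reached 5.94, 7.19 and 8.62 FPKM. Tnfsf13 lies on chromosome 11 at 69496079 to 69499056 (mm9), 685 bp from the TWEAK gene Tnfsf12, and both lie inside the listed locus BC096441, whose own FPKM were effectively 0. Whether fragments were divided correctly among these overlapping loci was not tested, and no source used here gives the strand setting of the counting, so the level of Tnfsf13 is uncertain to that extent. The neighbouring Senp3, 492 bp away, had 7.93, 9.33 and 11.7 FPKM.

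The promoters of 42 of the 52 members matched the RefSeq table (GRCm38.p6), as 46 windows. The 250 bases before the annotated start are shown for the most abundant ligand, for RANK and its scarce ligand, and for the receptor Tnfrsf1a and its scarce ligand Tnf, which are pairs with some of the widest gaps in level. Capitals mark matches, on either strand, to TATAA, to the GC box GGGCGG or to CCAAT, and the overlapping TTATAA of Tnfsf11 matches TATAA on both strands.
Tnfsf13, chr11:69685555-69685804, minus strand: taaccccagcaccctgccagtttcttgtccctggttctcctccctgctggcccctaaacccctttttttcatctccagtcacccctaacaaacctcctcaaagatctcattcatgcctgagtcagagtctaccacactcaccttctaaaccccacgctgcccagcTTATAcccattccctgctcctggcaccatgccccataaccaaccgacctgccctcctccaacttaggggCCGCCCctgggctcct
Tnfrsf11a, chr1:105780473-105780722, plus strand: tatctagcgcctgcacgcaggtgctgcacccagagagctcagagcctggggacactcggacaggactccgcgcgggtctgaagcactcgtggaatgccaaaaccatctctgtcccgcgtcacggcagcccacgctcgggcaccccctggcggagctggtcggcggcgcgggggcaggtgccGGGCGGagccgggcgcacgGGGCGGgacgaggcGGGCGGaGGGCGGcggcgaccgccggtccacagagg
Tnfsf11, chr14:78308044-78308293, minus strand: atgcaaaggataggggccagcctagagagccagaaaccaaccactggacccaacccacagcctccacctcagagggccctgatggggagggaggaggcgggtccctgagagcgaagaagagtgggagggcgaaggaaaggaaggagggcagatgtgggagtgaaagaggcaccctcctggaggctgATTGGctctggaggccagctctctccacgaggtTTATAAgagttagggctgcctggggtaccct
Tnfrsf1a, chr6:125349473-125349722, plus strand: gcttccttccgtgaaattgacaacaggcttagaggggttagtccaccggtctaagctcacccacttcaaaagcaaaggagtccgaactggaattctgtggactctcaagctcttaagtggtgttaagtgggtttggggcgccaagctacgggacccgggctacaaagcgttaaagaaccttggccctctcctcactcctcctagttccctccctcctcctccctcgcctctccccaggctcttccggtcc
Tnf, chr17:35202008-35202257, minus strand: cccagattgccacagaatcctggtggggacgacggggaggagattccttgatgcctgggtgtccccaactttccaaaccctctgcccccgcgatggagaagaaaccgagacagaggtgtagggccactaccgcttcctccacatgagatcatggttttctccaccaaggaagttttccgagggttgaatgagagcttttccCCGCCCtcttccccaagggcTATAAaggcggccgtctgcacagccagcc
The Tnfrsf11a window held 4 GC boxes and 31 CpG dinucleotides at 73.6% GC, whereas the Tnfsf11 window held the TATAA match, 1 CCAAT match and 4 CpG dinucleotides at 60.4% GC. The Tnf and Tnfsf13 windows each held 1 TATAA match and 1 GC box, and the Tnfrsf1a window held none of these motifs. No window shown held an NF-kappaB consensus match. Over all member windows a GC box was present in 47.8%, against 32.7% of all 32851 promoter windows of the same length. TATAA was present in 19.6% of member windows against 22.8%, CCAAT in 13.0% against 33.8%, and the NF-kappaB consensus in 10.9% against 7.25%. Such matches describe letters only, and no binding was measured.

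Among the other ligands, TRAIL (Tnfsf10), which triggers death receptors, was also called above 1 FPKM. Its levels were 2.16, 1.42 and 1.70 FPKM, and leaving out any 1 tumour ended that call. TWEAK (Tnfsf12), the ligand of the injury-linked receptor Fn14, had 0.889, 1.44 and 2.15 FPKM, and lymphotoxin beta (Ltb) had 0.571, 0.831 and 1.53 FPKM. The B cell survival factor BAFF (Tnfsf13b) had 0.682, 1.28 and 0.530 FPKM, and none of these 3 ligands was separated from 1 FPKM.

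Tnf itself, the founding inflammatory ligand, had 0.312, 0.773 and 0.784 FPKM, which rest on 13, 31 and 35 implied fragments. Tumour 1 was thus the lowest and the other tumours were close to each other, and Tnf was not separated from 1 FPKM in the deposited values. With trends of transcript GC content and length removed from each tumour, limma called Tnf, Tnfrsf9 and Traf1 below 1 FPKM and Tnfsf12 above it. Lymphotoxin alpha (Lta), which lies beside Tnf, was called below 1 FPKM at 0.0576, 0.269 and 0.322 FPKM. Fas ligand (Fasl), a death signal of cytotoxic lymphocytes, was below it at 0.196, 0.0204 and 0.347 FPKM, or 10, 1 and 19 fragments, a call lost without tumour 1.

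RANK ligand (Tnfsf11) was called below 1 FPKM and had 0.0669, 0.0521 and 0.0780 FPKM, on 4, 3 and 5 fragments, so that its level in tumour 2 is no higher than the 3 fragments that a listing at 0 could hide. The T cell co-stimulatory ligands Tnfsf9, Tnfsf8, Tnfsf18 and Tnfsf14, the hair and gland morphogen Eda, the helper T cell ligand Cd40lg and the ligand Tnfsf15 were called below it too. Their means lay between 0.0146 FPKM for Tnfsf15 and 0.343 FPKM for Tnfsf9, whose call was lost without tumour 1 or without tumour 3. Tnfsf9 shares 558 bp with Gm11110, listed at 0.908, 0.729 and 0.847 FPKM, so its value is uncertain. The ligand of OX40 (Tnfsf4) and that of Cd27 (Cd70) were listed at 0 in all 3 tumours.

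The most abundant death domain receptor was Tnfrsf1a, the broadly expressed TNF receptor. It had 12.8, 21.0 and 23.3 FPKM, or 19.0 ± 5.54 FPKM (SD, n = 3). Death receptor 6 (Tnfrsf21), studied mostly in neurons and lymphocytes, had 10.5, 11.2 and 16.1 FPKM. For both receptors even the lowest tumour lay above 10 FPKM.

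The TRAIL receptor Tnfrsf10b had 2.01, 2.98 and 2.96 FPKM. Fas, the receptor of Fas ligand, had 1.72, 1.55 and 1.82 FPKM from 27, 19 and 27 fragments. Both were called above 1 FPKM, although not without tumour 2, and for Fas not without tumour 3 either. The other 3 receptors were called below 1 FPKM, at means of 0.248 FPKM for Tnfrsf25, the receptor of Tnfsf15, 0.131 FPKM for the neurotrophin receptor Ngfr and 0.0638 FPKM for the ectodysplasin receptor Edar. Ngfr was listed at 0 in tumour 1 and was not called without tumour 3, and Edar rested on 1, 17 and 1 fragments.

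Of the TRAF-binding receptors, the lymphotoxin beta receptor (Ltbr), which activates the alternative NF-kappaB pathway, had 11.6, 20.2 and 25.3 FPKM. Fn14 (Tnfrsf12a), a receptor induced by growth factors and wounding, had 9.91, 21.1 and 21.9 FPKM. It shares 80 bp with Hcfc1r1, which had 9.84, 15.9 and 13.9 FPKM, so its value is uncertain where fragments fell in the overlap. In each receptor tumour 1 was the lowest, and all values were at or near 10 FPKM or higher.

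RANK (Tnfrsf11a) had 12.5, 9.54 and 8.04 FPKM, or 10.0 ± 2.29 FPKM (SD, n = 3). Unlike Ltbr and Fn14, it had its highest value in tumour 1. The second TNF receptor, Tnfrsf1b, which is most abundant on leukocytes and endothelium, had 4.31, 8.68 and 10.6 FPKM. Its partner Tnfrsf1a was 2.92, 2.41 and 2.19 times as high in tumours 1, 2 and 3, a mean difference of 1.31 ± 0.21 on the log2(FPKM + 0.1) scale (SD, n = 3). GITR (Tnfrsf18), a receptor typical of regulatory T cells, had 3.89, 3.39 and 5.30 FPKM. Of the T cell markers, Foxp3 had 0.120, 0.140 and 0.644 FPKM, and Cd3g, the highest by mean, had 0.953, 2.02 and 4.87 FPKM. The part of T cells in the level of GITR was not tested. TROY (Tnfrsf19), a receptor of epithelial and neural progenitors, had 1.60, 2.59 and 1.21 FPKM, and its call above 1 FPKM was lost when any 1 tumour was left out.

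Receptors that define lymphocyte and antigen-presenting states lay lower. Cd40, the receptor by which helper T cells activate antigen-presenting cells, had 0.719, 1.67 and 3.46 FPKM. HVEM (Tnfrsf14), a receptor of LIGHT that also binds the lymphocyte inhibitor Btla, had 0.689, 1.38 and 2.89 FPKM, and the T cell receptor Cd27 had 0.990, 1.23 and 2.22 FPKM. These 3 were not separated from 1 FPKM, and in all of them tumour 3 was the highest and tumour 1 the lowest as deposited. With GC and length trends removed this held for Cd40 and HVEM, whereas Cd27 had 1.38, 1.12 and 1.74 FPKM, with tumour 2 the lowest. Cd27 lies within the locus E130112N10Rik, listed at 1.57, 0.830 and 1.88 FPKM, and the division of fragments between these loci was not tested. Tnfrsf9, a co-stimulatory receptor of activated T cells, had 0.360, 0.688 and 0.767 FPKM and was not separated either.

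Called below 1 FPKM were OX40 (Tnfrsf4), Relt, TACI (Tnfrsf13b), BCMA (Tnfrsf17), the BAFF receptor (Tnfrsf13c) and Tnfrsf8. Relt is a receptor of haematopoietic tissue, TACI, BCMA and the BAFF receptor belong to B cells and plasma cells, and Tnfrsf8 is known from activated lymphocytes. Their means lay between 0.0462 FPKM for Tnfrsf8 and 0.515 FPKM for Tnfrsf4. BCMA and Tnfrsf8 were listed at 0 in tumours 1 and 2, and had 0.364 and 0.139 FPKM in tumour 3, on 7 and 6 fragments. TACI rested on 3, 2 and 10 fragments and the BAFF receptor on 3, 3 and 4. In tumours 1 and 2 both were thus no higher than the 3 fragments that a listing at 0 could hide. The calls of Relt, TACI, BCMA and OX40 were lost without tumour 1 and likewise without tumour 2.

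Among decoy and soluble receptors, the mouse TRAIL decoy receptor Tnfrsf23 had 3.04, 5.43 and 1.99 FPKM. Osteoprotegerin (Tnfrsf11b), the soluble receptor that captures RANK ligand, had 2.27, 2.90 and 1.22 FPKM. Tnfrsf22, the second TRAIL decoy, had 0.754, 1.70 and 1.09 FPKM, and Tnfrsf26 had 0.245, 0.395 and 0.171 FPKM. In all 4 genes tumour 2 was the highest. Tnfrsf23 and osteoprotegerin were called above 1 FPKM, though not without tumour 1 or tumour 2, Tnfrsf26 was called below, and Tnfrsf22 was not separated. Tnfrsf22, Tnfrsf23 and Tnfrsf26 stand side by side on chromosome 7 and are related in sequence, so reads shared among them leave their separate values uncertain.

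The TRAFs were the role with the highest median level. Traf4, which is known from breast carcinoma and from epithelial cell junctions, had 9.90, 11.5 and 17.0 FPKM. Traf7, an atypical member with WD repeats, had 6.04, 8.49 and 9.92 FPKM and shares 58 bp with Caskin1, which stayed below 0.4 FPKM. Traf2, the adaptor of both TNF receptors, had 3.09, 5.03 and 6.19 FPKM. In these 3 genes tumour 1 was the lowest and tumour 3 the highest as deposited. With GC and length trends removed this held for Traf2 only, and tumour 1 was the highest for Traf4 at 13.7, 10.5 and 13.4 FPKM and for Traf7 at 8.14, 7.75 and 8.03 FPKM. Traf6, which also serves the interleukin-1 and Toll-like receptors, had the opposite order at 5.97, 4.21 and 2.59 FPKM. Traf3, a brake on the alternative NF-kappaB pathway, had 2.49, 3.00 and 3.89 FPKM. All 5 were called above 1 FPKM, although Traf6 not without tumour 2. Traf1, an NF-kappaB-induced adaptor of lymphocytes, had 0.496, 0.649 and 0.777 FPKM and was not separated, and Traf5 was called below at 0.400, 0.208 and 0.696 FPKM, though not without tumour 1 or without tumour 2.

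Receptors were set against their own ligands within each tumour in 24 known pairs. The receptor was higher than the ligand in all 3 tumours in 16 pairs, the ligand in 5 pairs, and the sign was mixed in 3. The exact two-sided sign-flip test over 3 tumours cannot give a p under 0.25, so no pair could pass 0.05. Differences are on the log2(FPKM + 0.1) scale with their SD over 3 tumours, and this scale understates those of scarce genes. Among pairs whose ligand was detected, the widest gaps with a receptor above its ligand were 6.28 ± 0.23 for Ltbr over LIGHT (Tnfsf14) and 5.91 ± 0.37 for RANK over RANK ligand. LIGHT rested on 3, 9 and 9 fragments and RANK ligand on 4, 3 and 5, so the size of both gaps is uncertain. For RANK the difference was 6.24, 5.99 and 5.51 in tumours 1, 2 and 3, a mean ratio of 60.3. Each of these differences was many times its SD between tumours, but the ranking depended on the pseudocount. With 0.01 RANK over its ligand (7.04) and Ltbr over LIGHT (7.03) were nearly equal, and with 1 the gap was 4.07 for Ltbr over LIGHT, 3.60 for Tnfrsf1a over Tnf and 3.35 for RANK.

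Tnfrsf1a exceeded Tnf by 4.76 ± 0.19, and Tnfrsf1b exceeded Lta by 4.68 ± 0.12 and Tnf by 3.45 ± 0.14. Lta rested on only 2, 9 and 12 fragments. Ltbr exceeded Ltb by 4.18 ± 0.24, GITR exceeded its ligand Tnfsf18 by 4.12 ± 0.42 and Fn14 exceeded TWEAK by 3.47 ± 0.27. Thus the receptors of TNF, lymphotoxins and TWEAK all stood well above these ligands. Osteoprotegerin exceeded RANK ligand by 3.68 ± 0.72, and RANK exceeded osteoprotegerin by 2.24 ± 0.49.

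Further gaps with the receptor higher, and with a wider spread between tumours, were 3.48 ± 0.78 for Cd40 over Cd40lg, 2.83 ± 0.86 for Fas over Fas ligand and 2.70 ± 0.66 for HVEM over LIGHT. Tnfrsf25 exceeded Tnfsf15 by 1.58 ± 0.24 and Tnfrsf9 exceeded Tnfsf9 by 0.67 ± 0.68, a gap no larger than its SD. Tnfsf15 rested on 3, 0 and 4 fragments and Cd40lg on 1, 0 and 6, so the size of their gaps depended on the pseudocount. With 0.01 and 1 the gap was 3.52 and 0.30 for Tnfrsf25 over Tnfsf15, and 5.23 and 1.36 for Cd40 over Cd40lg. Cd27 and OX40 were detected while Cd70 and Tnfsf4 were listed at 0 in every tumour, so no ratio is given for these 2 pairs. Mixed signs were found for the TRAIL receptor and TRAIL at 0.56 ± 0.59, for Edar and Eda at -0.32 ± 0.85 and for TACI and BAFF at -1.31 ± 1.35. In the last pair TACI rested on 3, 2 and 10 fragments, so the sign is uncertain.

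The 5 pairs with the ligand higher were Tnfrsf8 with Tnfsf8 and 4 pairs of the APRIL and BAFF system. APRIL had the reverse imbalance to RANK ligand: TACI was lower than APRIL by a difference of -7.28 ± 0.45 and BCMA by -8.36 ± 0.75. For BAFF the differences were -2.40 ± 1.74 with BCMA and -2.41 ± 0.62 with the BAFF receptor. In these 4 pairs the receptors rested on few fragments or were listed at 0, as given above, so the size of each difference is uncertain. The B cell markers were near 0 in these tumours, as given above, and their part in the low receptor levels was not tested.

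**Figure D2:**
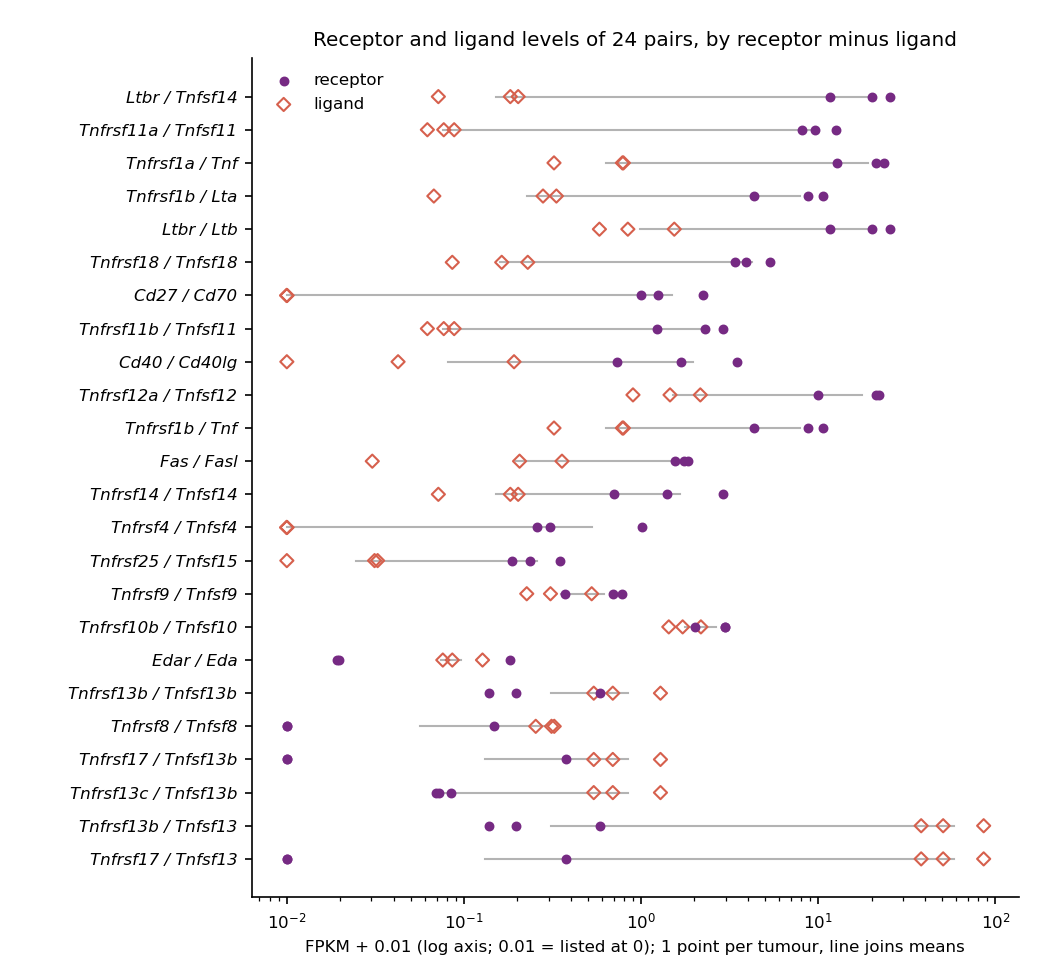
Receptor levels (filled circles) and ligand levels (open diamonds) of 24 pairs as FPKM + 0.01 on a log axis, 1 point per tumour, with a grey line joining the means of receptor and ligand, ordered by receptor minus ligand. Receptors lie right of their ligands in all 3 tumours in 16 pairs, and the 2 lowest rows show Tnfsf13 far to the right of Tnfrsf13b and Tnfrsf17.

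Differences between the 3 tumours were tested with Cochran's Q on the deposited standard errors, for symbols that averaged 1 FPKM or more, and the highest tumour had to reach at least 2 times the lowest. This test asks whether libraries differ by more than counting error and compares no conditions. It was passed by 14 of the 24 members that entered, against 32.1% of all 11193 symbols that entered. The 14 were Tnfsf13 and Tnfsf12 among ligands, Ltbr, Fn14, Tnfrsf1b, Cd40, TROY, HVEM and Cd27 among TRAF-binding receptors, all 3 decoy or soluble receptors that entered, and Traf2 and Traf6. No death domain receptor passed. Without tumour 1, 5 members passed, against 5.68% of all symbols, and without tumour 3, 5 members passed, against 14.1%.

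Tumour 1 was the lowest in 16 of the 24 members and tumour 3 the highest in 16, against 59.7% and 47.4% of all symbols. Tumour 1 was the highest in 3 members, against 28.7% of all symbols, and tumour 2 the lowest in 3, against 9.18%. The differences between tumours varied with the GC content of the transcripts. Across the 24 members the log2 ratio of tumour 3 to tumour 1 correlated with GC content at Pearson's r = 0.66 and Spearman's rho = 0.68, as it did across 11066 symbols at r = 0.51 and rho = 0.66. These are descriptions across genes, which share 3 libraries and are not independent replicates. When lowess trends of GC content and length were taken out of each tumour, r was 0.10 for the members and -0.02 for all symbols, and 4 members passed, against 16.9% of all symbols. Tumour 1 was then the lowest in 9 members, against 40.1% of all symbols, tumour 2 in 9, against 24%, and tumour 3 in 6, against 35.9%.

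The 4 members that passed with the trends removed were Cd40, HVEM, TROY and Tnfrsf23. Cd40 then stood at 0.832, 1.55 and 3.22 FPKM, and HVEM at 0.978, 1.26 and 2.23 FPKM. TROY stood at 1.85, 2.42 and 1.12 FPKM, and Tnfrsf23 at 3.26, 5.11 and 1.98 FPKM. The immune receptors Cd40 and HVEM were thus highest in tumour 3, where the macrophage markers also had their highest sum, 801 FPKM against 307 and 408 FPKM in tumours 1 and 2 with trends removed. Lyz2 alone accounted for 555 of these 801 FPKM, and Cd68 stood at 10.1, 10.3 and 12.7 FPKM. Tumour 3 also had the highest sums of T cell markers (2.12, 5.10 and 13.1 FPKM) and dendritic cell markers (7.31, 9.29 and 15.2 FPKM). The same held for neutrophil markers (5.05, 12.9 and 33.2 FPKM) and adipocyte markers (46.9, 45.2 and 253 FPKM). Single genes carried much of these sums in tumour 3, with 232 FPKM from Fabp4, 24.7 FPKM from S100a8 and 7.26 FPKM from Cd3g. Not every marker had this order: the neutrophil marker Cxcr2 (0.0457, 0.0828 and 0.0700 FPKM) and the dendritic cell marker Xcr1 (0.0166, 0.206 and 0.0729 FPKM) were highest in tumour 2. The part of these cells in the receptors' differences was not tested. Tnfsf13 with trends removed stood at 52.7, 46.0 and 68.0 FPKM, closer together than the deposited values, and no longer passed.

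**Figure D3:**
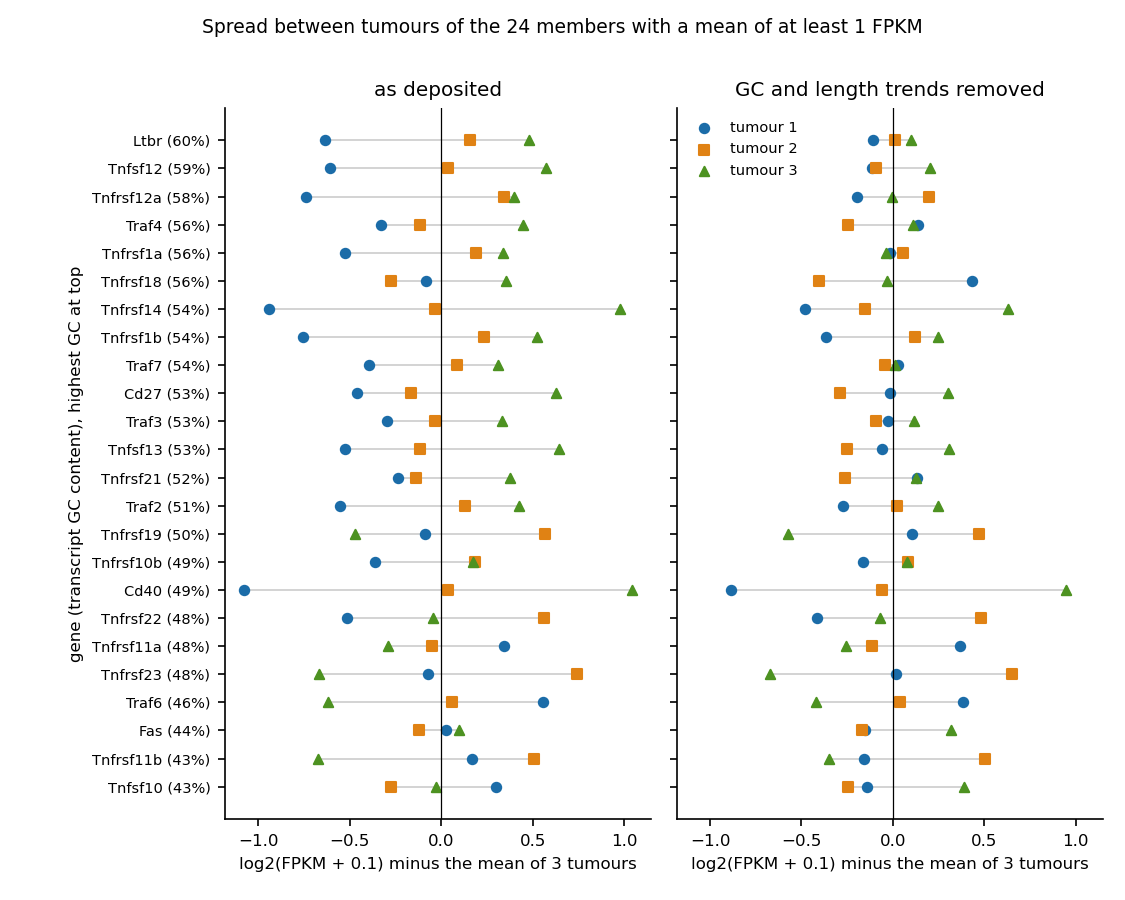
Deviation of each tumour from the mean of 3 tumours, on log2(FPKM + 0.1), for the 24 members that averaged 1 FPKM or more, ordered from high to low transcript GC content, as deposited (left) and with GC and length trends removed (right). As deposited, tumour 1 is the lowest in 16 members, mostly those rich in GC, and with trends removed it is the lowest in 9.

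Genes that act with the family were taken as 7 lists, whose counts stand beside 54.2% of all symbols called above 1 FPKM and 32.5% called below. Their levels are as deposited unless stated, with the GC and length trends not removed. Of 9 death domain adaptors, caspases and necroptosis kinases, 7 were called above 1 FPKM. The highest were Cflar, an inhibitor of caspase-8 activation, at 23.2, 16.9 and 13.3 FPKM, and Mlkl, the executioner of necroptosis, at 12.1, 10.8 and 10.7 FPKM. With the trends removed Cflar stood closer together at 18.7, 17.1 and 16.5 FPKM, and Mlkl stood at 14.2, 9.98 and 9.80 FPKM. The lowest was Edaradd, the adaptor of Edar, at 0, 0 and 0.0288 FPKM. Edar, Eda and this adaptor were therefore all low in the same tumours.

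Of 13 ubiquitin ligases, deubiquitinases and linked regulators of TNF signalling, 12 were above 1 FPKM. Tank, a TRAF-binding regulator, led at 34.9, 17.4 and 9.84 FPKM, followed by Rbck1, a subunit of the linear ubiquitin ligase, at 8.83, 14.4 and 16.6 FPKM. With the trends removed the tumours were closer together, at 20.2, 19.3 and 14.7 FPKM for Tank and 12.7, 13.0 and 12.7 FPKM for Rbck1. The lowest, Tifa, was not separated at 1.41, 1.13 and 1.56 FPKM. Of 14 kinases and kinase partners that could be tested, 10 were above and 4 not separated. Tab2, a partner of the kinase TAK1, had 29.6, 18.0 and 7.66 FPKM, and Map2k4, a JNK kinase, had 15.96, 16.4 and 7.26 FPKM. Both kept their order with the trends removed, at 31.6, 17.0 and 7.60 FPKM for Tab2 and 14.3, 15.8 and 8.46 FPKM for Map2k4. The lowest, Map3k14 of the alternative pathway, had 0.890, 1.27 and 1.61 FPKM.

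Of 9 NF-kappaB subunits and inhibitors, 8 were above 1 FPKM. The inhibitor Nfkbia had 9.87, 11.4 and 30.3 FPKM and the subunit Nfkb1 9.57, 9.77 and 9.83 FPKM, and Rel was the lowest at 1.75, 1.25 and 2.06 FPKM. Of 20 NF-kappaB target genes, which share Nfkbia, Tnfaip3 and Birc3 with the other lists, 12 were above and 5 below, shares near those of all symbols. Sod2, a mitochondrial superoxide dismutase, had 17.2, 20.4 and 25.3 FPKM, whereas the cytokine Il6 had 0.0769, 0 and 0 FPKM. The other target genes lay between these levels.

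All 5 sheddases and regulators were above 1 FPKM, including the TNF-releasing protease Adam17 at 14.3, 12.7 and 7.62 FPKM and the regulator of its transport Rhbdf1 at 10.9, 12.3 and 13.4 FPKM. The related Rhbdf2 was the lowest at 1.97, 3.01 and 3.26 FPKM. Of 9 other linked genes, 3 were above and 5 below. Litaf, a membrane protein first named for TNF induction, had 49.6, 78.3 and 84.7 FPKM, and the sorting receptor Sort1 had 14.1, 19.7 and 22.1 FPKM. The neurotrophin Ntf3 was the lowest at 0, 0 and 0.0284 FPKM.

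**Figure D4:**
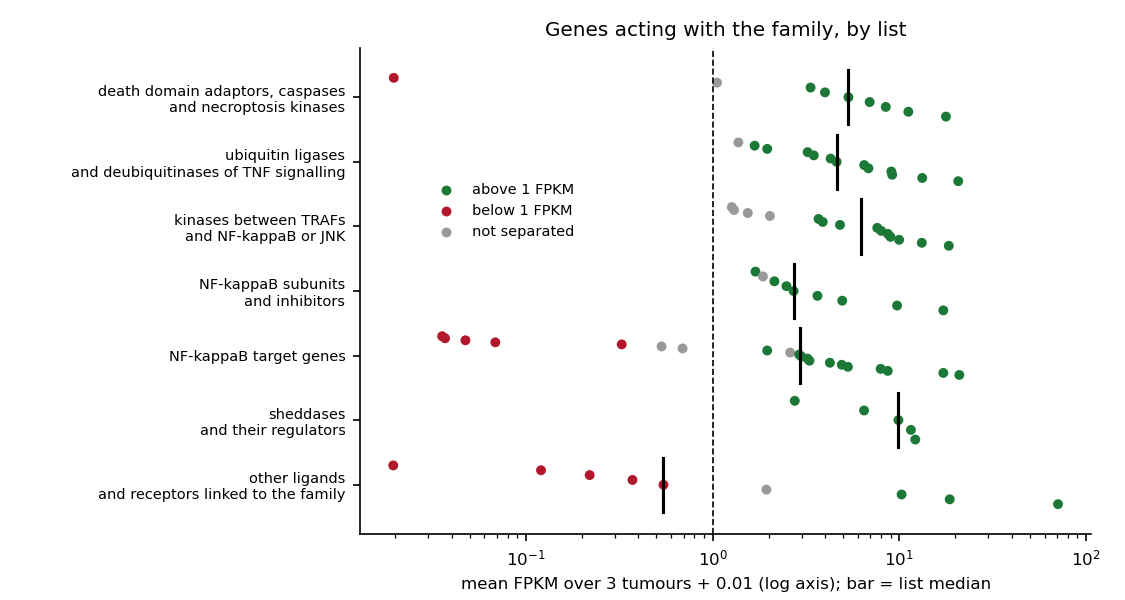
Mean level over 3 tumours, as FPKM + 0.01 on a log axis, of each gene in the 7 lists of genes acting with the family, coloured by its call against 1 FPKM (dashed line), with a black bar at each list's median. Points called above 1 FPKM make up 12 of 13 genes in the list of ubiquitin ligases, deubiquitinases and linked regulators and all 5 sheddases and regulators. In contrast, 5 of 9 other linked genes lie below.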

How the data were processed

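Per the labels' protocols, RNA depleted of ribosomal RNA (50 ng) from 3 frozen tumours was made into directional libraries with random-hexamer priming. Per the file headers, the authors deposited FPKM values by gene, each with interval bounds and a status. TopHat, Cufflinks and mm9 are named in the submitters' processing notes without roles. No source used here gives versions, annotation release or strand setting.

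Each file held 22310 rows. Rows of the 221 repeated symbols were summed, and 182 symbols whose status was not OK were left out of the tests. The distance from the FPKM to the upper bound was taken as 2 standard errors, and the implied fragments as the square of FPKM over that error. They were within 0.02 of a whole number for 89 of 143 member values above 0, and a count test was therefore not made.

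For levels, limma 3.58.1 (trend and robust moderation, R 4.3.3) was fitted to log2((FPKM + 0.1)/(1 + 0.1)) with Benjamini-Hochberg adjustment over 18028 symbols. Cochran's Q had 2 degrees of freedom and the same adjustment over 11193 symbols. Both tests were tried on simulated data. The numbers 1 to 3 are in accession order. The limma p-values measure the spread between mice that carry the same line, whereas those of Cochran's Q set differences between tumours against counting error. GC content and length came from GENCODE vM21, matched by symbol for 98.3% of symbols, and lowess trends (span 0.3) were fitted on symbols that averaged 1 FPKM or more and spanned at least 300 bp. Alternatives changed the pseudocount, filter, scaling, level and ratio, or left out a tumour. Members, roles, pairs and lists were chosen with earlier results of these data known. Described singly are, by role, the members called above 1 FPKM, those past the Q test, the 2 lowest above 0, those at 0 and those in a pair, and per list the 2 highest genes and the lowest. Foxp3, Senp3 and the overlapping loci were named outside that rule. Btla, Krt8, Epcam, Pax5, Lyz2, Cd68, Fabp4, S100a8, Cd3g, Cxcr2 and Xcr1 were named only as markers or partners.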

Additional observations from a re-analysis of the deposited data

How the results depend on the processing

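With an FPKM total of 1000000, the distance from 1 FPKM on the log2 scale turned positive for 7 members: 1.27 for Ltb, 1.06 for Tnfsf13b, 0.78 for Traf1, 0.66 for Tnf, 0.66 for Tnfrsf9, 0.25 for Tnfrsf4 and 0.14 for Traf5. Of these only Tnfrsf4 and Traf5 had been called, both below. For 3 members that were not called, leaving out 1 particular tumour changed the sign: tumour 1 for Ltb, tumour 3 for Tnfrsf14 and tumour 2 for Tnfrsf22. With each tumour left out in turn, the ranges were -0.48 to 0.16 for Ltb, -0.025 to 0.94 for Tnfrsf14 and -0.13 to 0.41 for Tnfrsf22. Edar minus Eda, of mixed sign, was 0.02 without tumour 3. The count of members above 1 FPKM, 19, became 12 with a level of 2 FPKM (42.8% of all symbols) and lay between 12 and 16 when a tumour was left out, and the count below, 21, became 11 with an FPKM total of 1000000 (23.3%) and lay between 14 and 19 when a tumour was left out. The count of members differing between tumours, 14, became 22 with a ratio of at least 1.5 (67.8% of all symbols), 25 with a mean of at least 0.1 FPKM (35.3%), 6 with median-of-ratios scaling (27.8%) and 4 with GC and length trends removed (16.9%). It lay between 5 and 11 when a tumour was left out. With the trends removed, log2 of tumour 3 over tumour 1 became negative for Tnfrsf18 (-0.46), Traf4 (-0.02), Traf7 (-0.02), Tnfrsf1a (-0.02) and Tnfrsf21 (-0.0057) and positive for Tnfsf10 (0.53). Removing the trends changes values by GC content and length by construction, and the causes of the other changes were not tested. The count of pairs with the receptor higher in every tumour stayed at 16 with the GC and length trends removed. It was 16 or 17 when a tumour was left out, which cannot lower it. The pseudocount cannot change the sign of a difference and so cannot change this count. A pseudocount of 0.01 or 1 moved the difference by more than its SD in 18 or 19 pairs. With an FPKM total of 1000000, 73.4% of all calls were above 1 FPKM, against 62.5% as deposited. Depth limits the scarce ligands, several of which rest on under 10 fragments per tumour. No paired analysis was possible because the series has 1 group.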

Other observations

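The members lie in part side by side in the genome (mm9, as in the files). Taking gaps of up to 250000 bp as neighbouring, 9 groups of 2 or 3 members were found. On chromosome 6, at 125182640 to 125312501, Ltbr and Tnfrsf1a had means of 19.0 and 19.0 FPKM and lay beside Cd27 with 1.48 FPKM. On chromosome 4, at 144802271 to 144905050, Tnfrsf1b had a mean of 7.87 FPKM and Tnfrsf8 0.0462 FPKM. On the same chromosome, at 155387804 to 155403000, Tnfrsf18 had 4.20 FPKM and Tnfrsf4 0.515 FPKM. The lymphotoxin and TNF genes Ltb, Tnf and Lta within 10845 bp of chromosome 17 were all under 1 FPKM on average, at 0.977, 0.623 and 0.216 FPKM. Neighbours were all low in the groups of Tnfsf4 and Tnfsf18, of Tnfsf9, Cd70 and Tnfsf14, and of Tnfsf15 and Tnfsf8, with no mean above 0.343 FPKM. These are values of 3 tumours with no test between neighbours.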
